A study of Homo sapiens with 9 samples.

Results

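SR proteins and hnRNPs are the most abundant families of sequence-specific RNA-binding proteins in the human nucleus, and the genes that encode them are described here across 9 RNA sequencing libraries of U2OS cells. U2OS is an established human osteosarcoma line. There were 3 groups of 3 libraries: cells in which PERK had been removed with CRISPR/Cas9, treated with palbociclib for 4 days (KO palbociclib); wild-type cells treated with palbociclib for 4 days (WT palbociclib); and wild-type cells given vehicle (WT vehicle). Palbociclib blocks CDK4 and CDK6, which begin the inactivation of the retinoblastoma protein in dividing cells, and PERK is a kinase of the endoplasmic reticulum that phosphorylates the translation factor eIF2α under stress. Knockout cells on vehicle were not analysed here, so KO and WT were compared on the drug only. Whether the PERK knockout line is 1 clone is not given in the sources used here.

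The genes were taken by name from the table of raw counts: protein-coding genes whose symbol begins with SRSF and a number or with HNRNP, and TRA2A, TRA2B, PTBP1, PTBP2, PTBP3 and SYNCRIP. This gave 45 genes of the 70116 IDs in the table. Of these, 37 had enough counts to be tested, among 19408 tested genes in all, and 8 did not. A further 138 names that match were left out because they are not coding, and 136 of those are pseudogenes.

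SR proteins carry RNA recognition motifs and a tail rich in arginine and serine, bind enhancers within exons, and recruit the spliceosome once SR kinases have phosphorylated that tail. The hnRNPs coat nascent transcripts, and many of them repress exons, so the balance between both families sets which exons an mRNA keeps. Many of these genes also limit their own output: an excess of the protein promotes splicing of an exon or intron that sends its own mRNA to nonsense-mediated decay. In the GENCODE 29 annotation, at least 1 transcript marked for such decay was listed for 14 of the 14 SRSF and TRA2 genes, for 12 of the 23 tested hnRNP genes (52.2%) and for 5730 of all 13819 tested coding genes (41.5%). Counts per gene add all transcripts together, so they do not show which of these transcripts was present.

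Because palbociclib acts on the pathway that restrains E2F transcription factors, E2F motifs were searched in RefSeq promoters (GRCh38.p14). The search covered the 250 bases before the RefSeq start, and 40 of the 45 genes had such a promoter. For 28 of the 40, the last 25 bases of the promoter entry were found in a GENCODE 29 transcript of the gene. The motif was searched on both strands as TTTCCCGC, TTTCGCGC, TTTGCCGC or TTTGGCGC. It was found in 5 of the 40 (12.5%), against 761 of all 27305 promoters (2.79%). The median GC content of these 250 bases was 65.6% in the 40 and 58.0% in all promoters. The 5 E2F matches are shown in their surroundings, read 5′ to 3′ on the strand of the gene, with the motif or its reverse complement in capitals. Longer stretches are printed for HNRNPK and TRA2B, where the sequence lies outside the GENCODE 29 gene, and windows of 30 bases for the rest. The windows of SRSF10 and HNRNPLL lie inside the GENCODE 29 gene, so their matches are upstream of the RefSeq start only.
HNRNPK, chr9:83980617-83980865, minus strand: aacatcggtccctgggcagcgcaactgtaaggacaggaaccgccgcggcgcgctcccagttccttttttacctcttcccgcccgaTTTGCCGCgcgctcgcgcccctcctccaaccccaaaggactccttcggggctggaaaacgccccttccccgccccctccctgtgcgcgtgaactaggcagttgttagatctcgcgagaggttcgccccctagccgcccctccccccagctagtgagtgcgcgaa
TRA2B, chr3:185938137-185938264, minus strand: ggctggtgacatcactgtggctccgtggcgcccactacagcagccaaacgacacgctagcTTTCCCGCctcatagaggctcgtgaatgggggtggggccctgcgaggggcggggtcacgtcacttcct
HNRNPA3, chr2:177212544-177212573, plus strand: cgGCGGCAAAggccctcttcccctgaaagc
SRSF10, chr1:23980428-23980457, minus strand: ctggtgttctcGCGGGAAAgaaccgttgcg
HNRNPLL, chr2:38603084-38603113, minus strand: gcccggtcgacTTTCCCGCccctgccaata
A match is a description of letters and not a binding site. With palbociclib, HNRNPK, TRA2B, HNRNPA3 and SRSF10 were lower and HNRNPLL was not called. The E2F motif was present in 4 of the 26 genes with a promoter that were called lower (15.4%) and in 1 of the 7 that were tested and not called (14.3%). SRSF1 had no match in this window, and HNRNPA1, HNRNPA1L3, HNRNPCL3, SRSF2 and TRA2A had no entry.

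Total counts ran from 33674039 to 42577874 per library. EIF2AK3, which encodes PERK (chr2:88556741-88627576 on GRCh38), stood at 19.7, 18.7 and 17.8 CPM (counts scaled to an equal library size) in KO palbociclib, 35.7, 36.8 and 31.8 CPM in WT palbociclib and 31.7, 34.8 and 32.8 CPM in WT vehicle libraries. Its mRNA was lower in every KO library than in every WT library, and on palbociclib KO over WT was -0.89 ± 0.068 (SE) on the log2 scale (edgeR, adjusted p = 5.98e-09). Of 10 markers of the osteoblast lineage, 7 were at 1 CPM or more and 1 was at 0, and none of 7 haematopoietic markers reached 1 CPM. At 1 CPM or more were also 5 of 6 epithelial, 4 of 6 neuronal and 3 of 6 endothelial markers. These counts therefore do not single out the osteoblast lineage. Whether the numbered sets came from separate cultures is not stated in the labels, and the p-values rest on library-to-library spread that may be technical. In bulk RNA, fewer cells of a kind and less RNA per cell cannot be told apart.

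The 8 untested genes fall into distinct situations. HNRNPA1L2 and HNRNPCL1 to HNRNPCL4, copies of HNRNPA1 and HNRNPC, were listed at 0 in all 9 libraries. HNRNPUL2-BSCL2 is a readthrough of neighbouring genes on the same strand, with a mean of 0.0527 CPM. HNRNPL and HNRNPR, which nearly all human cells use, were listed at means of 0.00264 and 0.0379 CPM. All 10 coding genes nearest to HNRNPL were below 1 CPM, 7 of them at 0, among them SIRT2 and NFKBIB, within 78.7 kb. Of the 10 nearest to HNRNPR, 7 were below 1 CPM and 5 were at 0, while KDM1A stood at 218 and LUZP1 at 124 CPM. Around PTBP1, itself at a mean of 414 CPM, and around SYNCRIP, 6 of the 10 nearest were below 1 CPM. A share of 7 in 10 is therefore close to that near well-detected genes. The listings of HNRNPL and HNRNPR near 0 are taken as no statement on expression, and their cause was not tested. HNRNPH1, at a mean of 24.9 CPM, also lies in such a stretch: 7 of its 10 nearest coding genes were below 1 CPM and CANX, a chaperone gene that most cells use heavily, stood at 28.5 CPM. This share alone does not set HNRNPH1 apart from well-detected genes, and its values are treated as uncertain only as a precaution. The values of HNRNPUL2, which overlaps the readthrough on the same strand, are also treated as uncertain. So are those of HNRNPH2, which overlaps a readthrough from RPL36A in the same way, and of HNRNPA1L3, a near copy of HNRNPA1. SYNCRIP also overlaps another coding gene, AL589666.1, on the same strand. It was not set apart with these genes, and its values carry the same doubt. SRSF1, SRSF2, SRSF9, HNRNPA2B1, HNRNPAB, HNRNPH3, HNRNPU and HNRNPUL1 also overlap coding genes, on either strand, and were not set apart. How strand was used in counting is unknown, so their values may carry this doubt too.

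Per kilobase of the principal transcript, HNRNPA2B1 had the highest level of the 37 genes, with group means of 466 CPM per kb in KO palbociclib, 430 in WT palbociclib and 577 in WT vehicle. HNRNPC followed at 351, 335 and 451 CPM per kb in the same groups, HNRNPA1 at 283, 260 and 320, and HNRNPK at 257, 260 and 297. SRSF10 was the highest SR gene in WT vehicle at 146 CPM per kb, and SRSF5 was the highest in KO palbociclib at 121 CPM per kb. SRSF12 was the lowest of all, at 0.436, 0.187 and 0.215 CPM per kb. The median coefficient of variation of the 37 genes within a group was 3.76% in KO palbociclib, 3.77% in WT palbociclib and 4.25% in WT vehicle, and SRSF12 was the most variable in all 3 groups.

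The first comparison asked what palbociclib did in wild-type cells, and most genes of both families fell. Of the 37 tested genes, 29 were lower in WT palbociclib than in WT vehicle (78.4%), against 22.3% of all tested genes, at an adjusted p under 0.05 in edgeR's quasi-likelihood test. None was higher, against 21.3% of all tested genes. There was also none at an unadjusted p under 0.05, and none by DESeq2 or limma-voom. The median log2 fold change was -0.32 for the 37 and -0.02 for all tested genes. In 28 of the 37 every palbociclib library was below every vehicle library, against 26.9% of all tested genes. Most of these genes are abundant, and abundant genes were called more often in both directions: of all genes with a mean of at least 50 CPM, 35.7% were lower and 27.2% higher, with a median of -0.03. Among the 32 SR protein and hnRNP genes at that level, 26 were lower (81.2%) and none was higher. Without HNRNPH1, HNRNPUL2, HNRNPA1L3 and HNRNPH2, 27 of 33 were lower. SYNCRIP, which overlaps a coding gene on the same strand, was kept among the 33, as were SRSF1 and the others listed with it above.

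**Figure D1:**
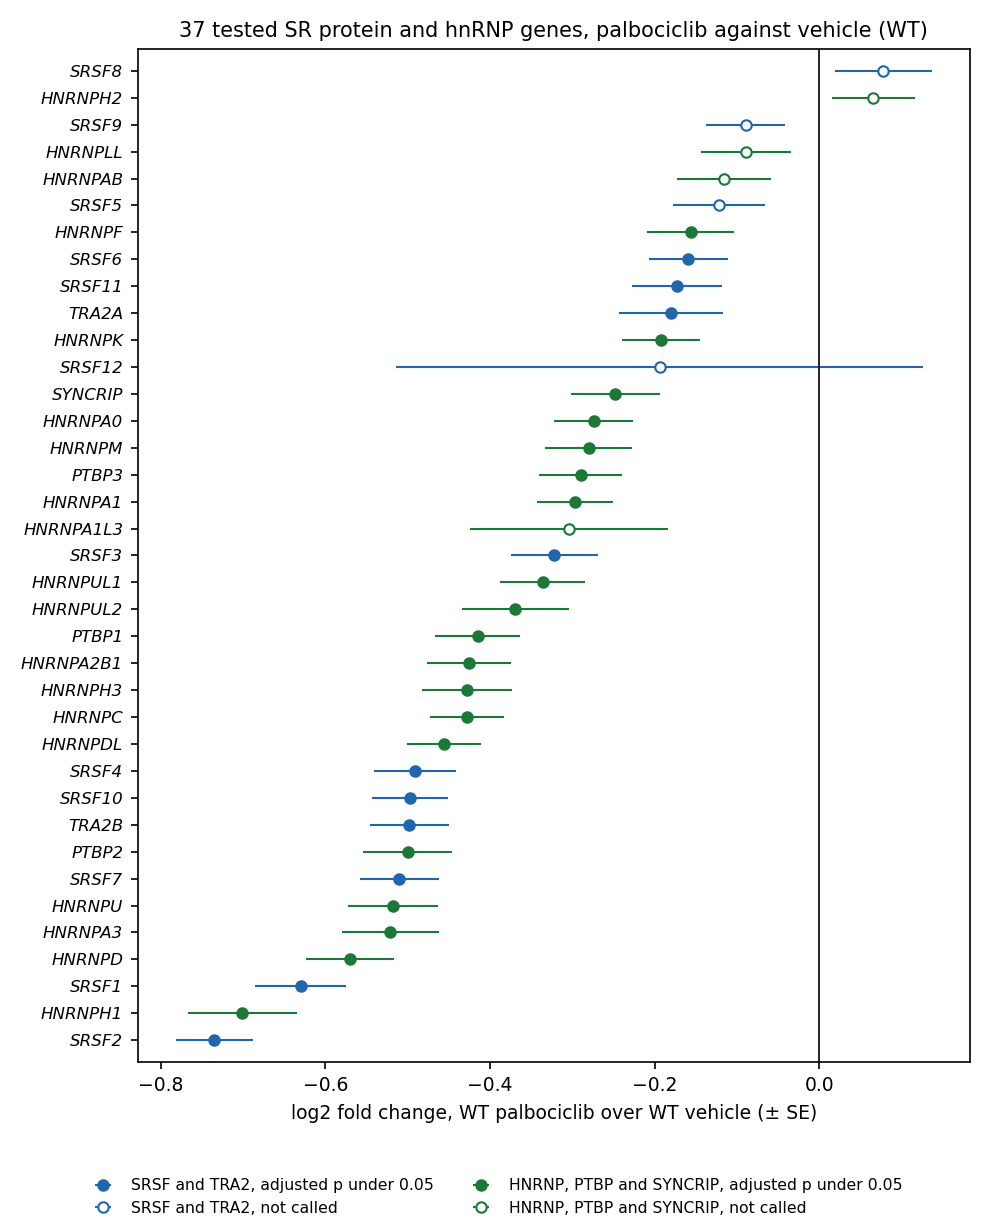
Log2 fold change of the 37 tested SR protein and hnRNP genes (rows) in WT palbociclib over WT vehicle, with bars of 1 SE; filled points passed an adjusted p under 0.05 in edgeR. The values run from -0.73 for SRSF2 to 0.08 for SRSF8, and all 29 filled points lie below 0.

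The summed level shows the size of the fall. The 14 SRSF and TRA2 genes together held 2168, 2116 and 2098 CPM in KO palbociclib, 2093, 2158 and 2146 CPM in WT palbociclib and 2713, 2707 and 2774 CPM in WT vehicle libraries. The 31 hnRNP genes held 8295 to 8821 CPM in KO palbociclib, 8051 to 8519 in WT palbociclib and 10320 to 10888 in WT vehicle. In both families the palbociclib libraries of either genotype lay below all vehicle libraries. All 45 genes took 1.07% of counts in KO palbociclib, 1.04% in WT palbociclib and 1.34% in WT vehicle.

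**Figure D2:**
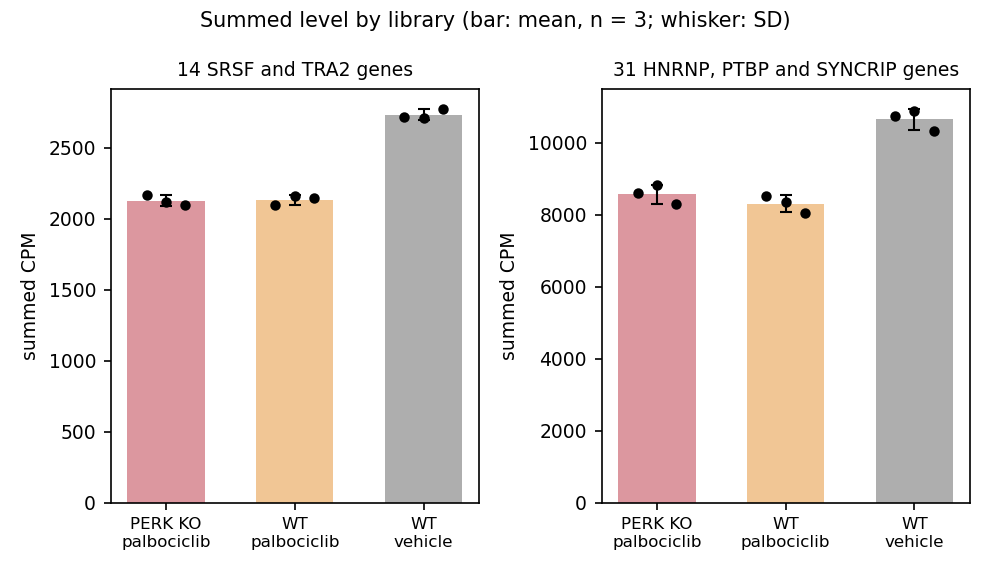
Summed CPM of the SRSF and TRA2 genes (left) and of the HNRNP, PTBP and SYNCRIP genes (right) in each library (points), with the group mean (bar, n = 3) and SD (whisker). The palbociclib libraries of both genotypes lie below the vehicle libraries in both panels.

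Among SR proteins with a pair of RNA recognition motifs, 3 of 5 were lower. SRSF1 (chr17:58003360-58007346), the founding SR protein, which binds purine-rich exonic enhancers, had 94.5, 103 and 91.6 CPM in WT palbociclib libraries and 146, 160 and 142 CPM in WT vehicle libraries. The groups did not overlap, and SRSF1 stood at 64.6% of its vehicle mean (log2 fold change -0.63 ± 0.055, edgeR adjusted p = 1.88e-08). SRSF4 followed at a log2 fold change of -0.49 and SRSF6 at -0.16. SRSF5 and SRSF9 were not called, with log2 fold changes of -0.12 and -0.09 and overlapping groups. SRSF5 was called lower with the set as a block (edgeR, adjusted p = 0.00867) and without WT palbociclib 3 (0.0161).

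Among SR proteins with a single motif, 5 of 7 were lower. SRSF2 (SC35, chr17:76734115-76737374), a component of nuclear speckles, had the largest fall of the 37 genes. It had 165, 162 and 162 CPM in WT palbociclib libraries and 279, 261 and 275 CPM in WT vehicle libraries, which is 60.1% of the vehicle mean without overlap (log2 fold change -0.73 ± 0.047, edgeR adjusted p = 3.64e-10). SRSF7 and SRSF3, both also adaptors for mRNA export, changed by -0.51 and -0.32 on the log2 scale, SRSF10 by -0.50 and SRSF11 by -0.17. SRSF8, a retroposed copy of SRSF2, went the other way in value: it had 57.6, 53.1 and 58.4 CPM in WT palbociclib and 53.3, 50.9 and 56 CPM in WT vehicle libraries. These groups overlapped and SRSF8 was not called (0.08 ± 0.059, adjusted p = 0.311), nor was SRSF12. Both TRA2 genes, human counterparts of the Drosophila sex determination factor transformer 2, were lower, TRA2B by -0.50 and TRA2A by -0.18. TRA2B stood at 216, 193 and 201% of TRA2A in WT palbociclib libraries, against 258, 238 and 263% in WT vehicle libraries.

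Among the A, B and D hnRNPs, 6 of 8 tested genes were lower. HNRNPD (AUF1, chr4:82352498-82374503), which binds AU-rich elements of unstable mRNAs, had 430, 422 and 404 CPM in WT palbociclib libraries and 633, 641 and 589 CPM in WT vehicle libraries. HNRNPA3 (chr2:177212563-177223958) had 244, 233 and 214 CPM in WT palbociclib libraries and 328, 344 and 318 CPM in WT vehicle libraries. Neither gene overlapped between groups. The log2 fold changes were -0.57 ± 0.053 for HNRNPD (adjusted p = 4.52e-08) and -0.52 ± 0.059 for HNRNPA3 (adjusted p = 5.88e-07, both edgeR). HNRNPDL, HNRNPA2B1, HNRNPA1 and HNRNPA0 followed with log2 fold changes of -0.46, -0.43, -0.30 and -0.27. HNRNPAB and HNRNPA1L3 were not called in the main test, and both were called lower with the set as a block (edgeR, adjusted p = 0.0102 and 0.0287). HNRNPAB was also called lower without WT vehicle 3 (0.0226), and HNRNPA1L3 without WT palbociclib 3 (0.0245) or WT vehicle 1 (0.0336).

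Of the remaining 15 hnRNPs, 13 were lower. HNRNPC, which binds uridine tracts and keeps Alu-derived exons out of mRNA, changed by -0.43 on the log2 scale. HNRNPU, a chromatin-associated scaffold, and its relatives HNRNPUL1 and HNRNPUL2 changed by -0.52, -0.34 and -0.37. HNRNPK, which binds cytidine tracts, changed by -0.19, HNRNPM by -0.28 and SYNCRIP, also called hnRNP Q, by -0.25. The polypyrimidine tract proteins PTBP2, PTBP1 and PTBP3 changed by -0.50, -0.41 and -0.29, while HNRNPLL was not called (-0.09), except without WT vehicle 1 (edgeR, adjusted p = 0.0438). The G-run binding proteins were uneven. HNRNPH1 (chr5:179614178-179634784) had 19.6, 19.8 and 22.1 CPM in WT palbociclib libraries and 34.8, 32.7 and 32.5 CPM in WT vehicle libraries. These groups did not overlap, and the change was -0.70 ± 0.066 on the log2 scale (edgeR, adjusted p = 5.52e-08), from counts that are uncertain as described above. HNRNPH3 changed by -0.43 and HNRNPF by -0.16. HNRNPH2 (chrX:101408295-101414133) had 132, 127 and 119 CPM in WT palbociclib libraries and 119, 125 and 117 CPM in WT vehicle libraries, with overlapping groups, and was not called (0.07 ± 0.05, adjusted p = 0.297).

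Of the 29 lower calls, 4 with small changes depended on single libraries, each by edgeR's adjusted p. HNRNPF was lost without WT vehicle 1 (0.0803), WT palbociclib 2 (0.0518) or WT palbociclib 3 (0.233). TRA2A was lost without WT vehicle 2 (0.149), WT vehicle 3 (0.0545), WT palbociclib 1 (0.159) or WT palbociclib 3 (0.114). SRSF11 was lost without WT palbociclib 1 (0.102) or WT palbociclib 2 (0.0512), and SRSF6 without WT palbociclib 3 (0.0699). With all libraries kept, HNRNPF was also lost by DESeq2 (0.0642), with RLE factors (0.0562) and with only the 6 libraries compared (0.0775), TRA2A by DESeq2 (0.068) and with the 6 libraries (0.0787), and SRSF11 with the 6 libraries (0.0504). In the fit with the set as a block, HNRNPF, TRA2A, SRSF11 and SRSF6 kept their calls (edgeR, adjusted p = 0.000483, 0.000404, 0.000574 and 0.00115). After subtracting the median of tested genes within 5 Mb, HNRNPK stood at -0.04 and SRSF7 at -0.33.

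**Figure D3:**
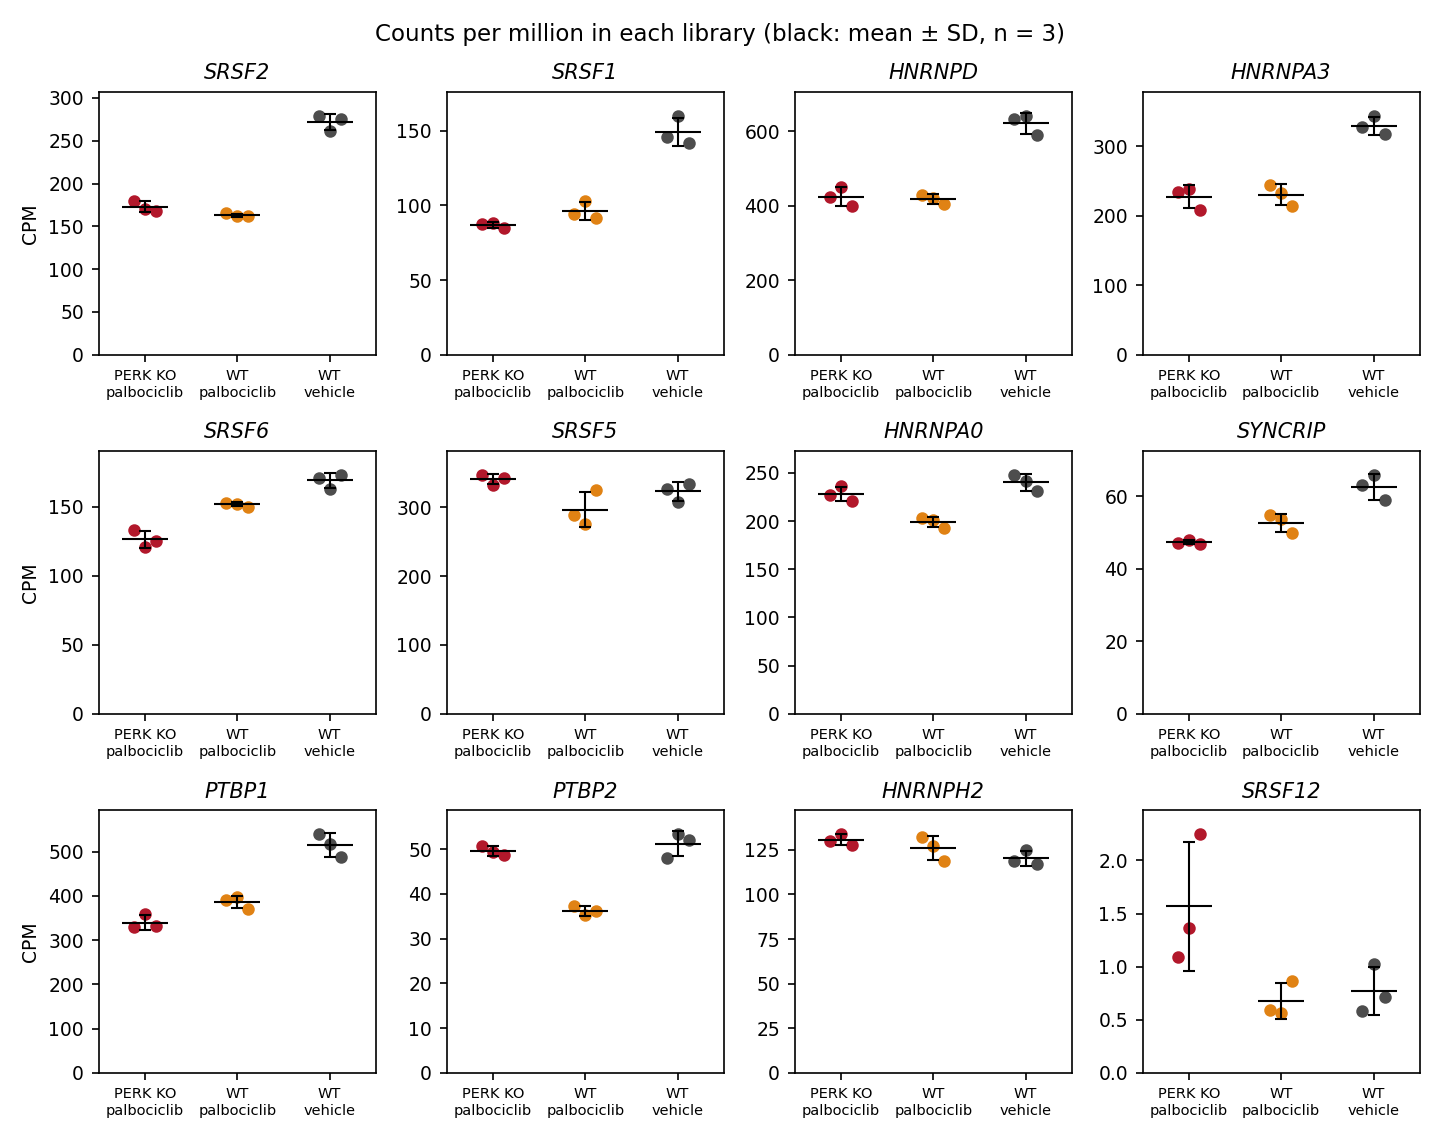
CPM of 12 genes in each library (points) of KO palbociclib, WT palbociclib and WT vehicle, with mean and SD (n = 3) in black. SRSF2, SRSF1, HNRNPD and HNRNPA3 were low in both palbociclib groups, and PTBP2 was low in WT palbociclib alone.

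Most genes of the other splicing lists were lower as well, beside 22.3% lower and 21.3% higher over all tested genes (35.7% and 27.2% at 50 CPM or more). The genes named are those with a mean of at least 5 CPM. Some genes of these lists were also listed at or near 0 and not tested, among them EIF4A3 (0.00321 CPM), CLK2 and DYRK1B (0.0 CPM) and TAF15 (0.124 CPM). Their listing is likewise taken as no statement on expression. Core proteins of the snRNPs and spliceosome were lower in 43 of 54 tested genes and higher in 1, and their median log2 fold change was -0.28. The most lowered were SNRPB, a shared Sm ring protein, at -0.62 and PRPF38A at -0.60, and the higher one was SLU7, a second-step factor, at 0.35. SR-related coactivators and exon junction factors were lower in 27 of 37 and higher in none (median -0.26; none at an unadjusted p under 0.05 in edgeR, and none by DESeq2 or limma-voom). MAGOH, a core of the exon junction complex, and U2AF1, which reads the 3′ splice site, were at -0.55 and -0.53. Other splicing regulators were lower in 28 of 42 and higher in 4 (median -0.24): SFPQ and RBM17 were at -0.58 and -0.51, and the higher ones included CELF2 at 0.95 and MBNL2, a muscleblind protein, at 0.59. SR kinases, phosphatases and importers were lower in 9 of 18 and higher in 1 (median -0.13), with the kinase PRPF4B at -0.37, the importer TNPO3 at -0.33 and the kinase DYRK3 at 0.17. Nonsense-mediated decay factors were lower in 7 of 10 and higher in none (median -0.18; also none at an unadjusted p under 0.05 and none by DESeq2 or limma-voom), led by SMG9 at -0.55 and UPF3B at -0.35.

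**Figure D4:**
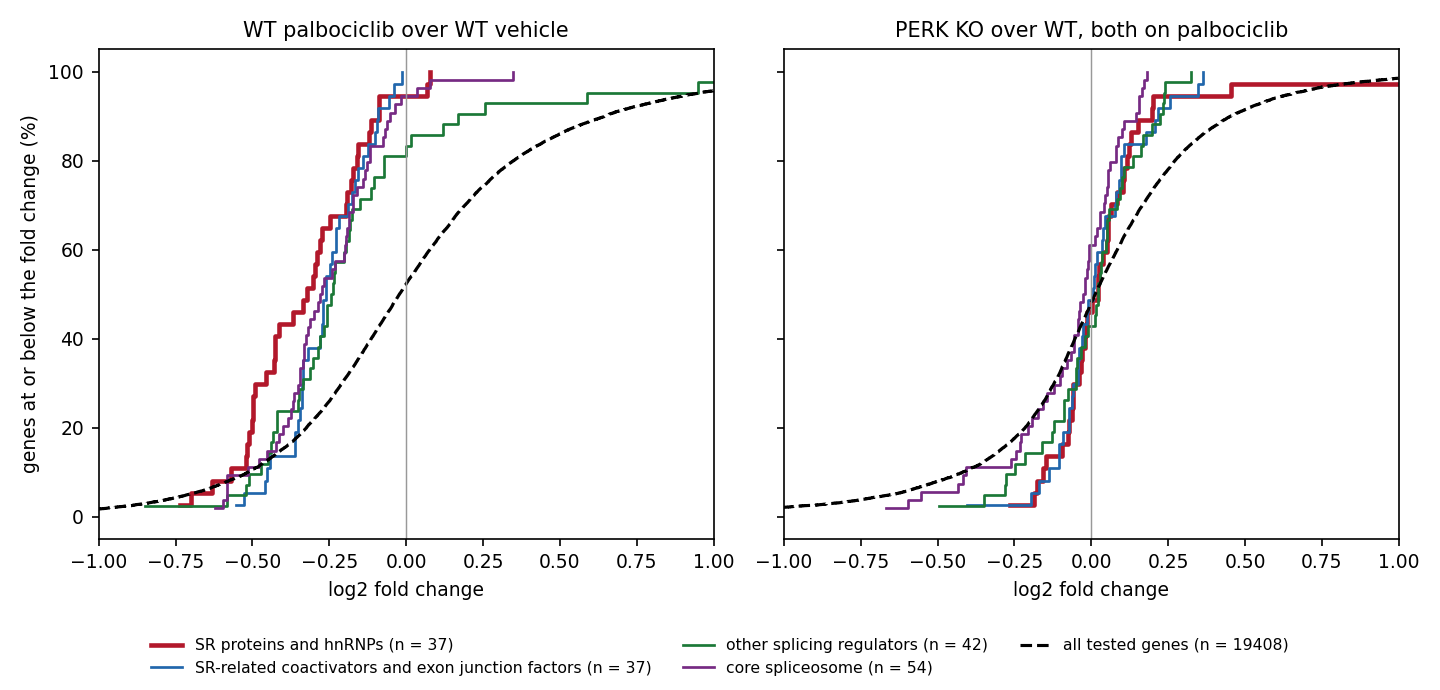
Share of genes at or below each log2 fold change (x axis, cut at -1 and 1) for the tested SR proteins and hnRNPs, 3 lists of other splicing genes and all tested genes. With palbociclib (left) the curve of the SR proteins and hnRNPs crosses 50% at -0.32 and that of all genes at -0.02; between KO and WT (right) they cross at 0.02 and 0.01.

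Checks of RNA handling and cell makeup were read beside this fall, and their part in it was not tested. The 13 mitochondrially encoded mRNAs summed to 34044 to 42107 CPM in WT palbociclib and 28196 to 37387 in WT vehicle, which overlap. In the same groups, 7 nuclear retained RNAs summed to 1338 to 1658 and 1306 to 1363 CPM, which also overlap. Of the 6 tested, 2 were higher (33.3%) and 0 lower. The 15 immediate early and heat shock genes summed to 2265 to 2412 and 2745 to 2753 CPM. This lower sum did not hold gene by gene: of 12 tested, 5 were higher (41.7%) and 2 lower (16.7%). Their median log2 fold change was -0.03. Over all tested genes, 21.3% were higher and 22.3% lower. Osteoblast markers summed to 6317 to 7483 CPM in WT palbociclib and 4092 to 4462 in WT vehicle. Of the tested markers of other cell types, 4 of 6 neuronal genes were higher and none lower (median 0.71; none lower at an unadjusted p under 0.05 in edgeR, nor by DESeq2 or limma-voom). Endothelial genes were higher in 2 of 4 and lower in 1, epithelial genes higher in 1 of 5, and the single tested haematopoietic gene was higher. Their sums were 31.9 to 32.7 and 32.7 to 34.8 CPM for 6 epithelial genes (none at 0), 8.78 to 9.66 and 5.70 to 6.15 for 6 endothelial genes (none at 0), 125 to 150 and 112 to 122.5 for 6 neuronal genes (none at 0) and 0.531 to 0.647 and 0.253 to 0.461 for 7 haematopoietic genes (2 at 0).

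The second comparison set KO palbociclib against WT palbociclib, and most SR proteins and hnRNPs did not pass the test. Higher in KO were 4 of 37, against 14.9% of all tested genes, and lower were 4 of 37, against 13.0%. The remaining 29 were not called, and the median log2 fold change was 0.02, against 0.01 for all tested genes. Among the 32 with a mean of at least 50 CPM, 2 were higher (6.25%) and 4 lower (12.5%). Of all genes at that level, 20.9% were higher and 19.8% lower. These shares of the SR protein and hnRNP genes are near or below those of all genes. With the set as a block, 9 were higher, against 19.5% of all tested genes, and 5 lower, against 16.9%. The added genes were HNRNPA1, HNRNPA2B1, HNRNPDL, HNRNPF and TRA2A among the higher (adjusted p = 0.00653, 0.00757, 0.023, 0.00528 and 0.0401) and SRSF1 among the lower (0.00628), with changes of 0.105 to 0.128 and -0.145 on the log2 scale. With all libraries kept, HNRNPA1 was also called higher by DESeq2 (0.0486) and limma-voom (0.028), and SRSF1 lower with RLE factors (0.0464), without the filter (0.0274) and with only the 6 libraries compared (0.0325). Single libraries also decided some calls in edgeR: HNRNPA1 was called without WT vehicle 3 (0.0412), HNRNPF without KO palbociclib 3 (0.045) or WT palbociclib 1 (0.0496), and SRSF1 without WT palbociclib 3 (0.0167) or WT vehicle 1, 2 or 3 (0.048, 0.0449 and 0.0416).

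The PTB proteins parted ways between the genotypes. PTBP1 (chr19:797075-812327) represses exons through polypyrimidine tracts in most cells, and PTBP2 (chr1:96721665-96823738) is its paralog, best known from developing neurons. As background, PTBP1 is known to keep PTBP2 low by skipping a PTBP2 exon, which sends that mRNA to decay. PTBP2 had 50.8, 49.3 and 48.6 CPM in KO palbociclib, 37.3, 35.2 and 36.1 CPM in WT palbociclib and 48.1, 53.4 and 52.1 CPM in WT vehicle libraries. All KO libraries lay above all WT palbociclib libraries and overlapped with vehicle. Its log2 fold change in KO over WT on palbociclib was 0.45 ± 0.054 (edgeR, adjusted p = 2.41e-06), and in WT palbociclib over vehicle it was -0.50 ± 0.054 (adjusted p = 3.73e-07). These comparisons share the WT palbociclib libraries, so the opposite signs are not independent of each other.

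PTBP1 had 329, 358 and 331 CPM in KO palbociclib, 391, 397 and 370 CPM in WT palbociclib and 540, 518 and 487 CPM in WT vehicle libraries. The 3 groups did not overlap, with KO lowest. Its log2 fold change in KO over WT was -0.19 ± 0.052 (edgeR, adjusted p = 0.011); the call was lost without WT palbociclib 2 (0.0655), KO palbociclib 1 (0.0552) or KO palbociclib 3 (0.0555). PTBP2 was 15.4, 13.8 and 14.7% of PTBP1 in KO palbociclib libraries, 9.53, 8.86 and 9.75% in WT palbociclib libraries and 8.91, 10.3 and 10.7% in WT vehicle libraries. The KO libraries were higher than all others in this share. PTBP3, at a log2 fold change of -0.09, was not called. Neuronal markers in sum were 134.5 to 165.9 CPM in KO palbociclib and 125 to 150 CPM in WT palbociclib. Of the 6, 3 were higher in KO and 1 lower, beside 14.9% and 13.0% of all tested genes. RBFOX3 at 1.07 and MAP2 at -0.78 on the log2 scale were named after their values were seen. The 6 markers ran from -0.78 to 1.56, and 4 of them were at 1 CPM or more. Their part in the PTBP2 result was not tested.

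Among SR proteins, SRSF6 (chr20:43457928-43464247) was lower in KO, with 133, 121 and 125 CPM in KO palbociclib and 153, 152 and 150 CPM in WT palbociclib libraries. The groups did not overlap (log2 fold change -0.26 ± 0.048, edgeR adjusted p = 0.000309). SRSF5 was higher, with 347, 333 and 343 CPM in KO palbociclib and 289, 276 and 325 CPM in WT palbociclib libraries, also without overlap (0.20 ± 0.056, adjusted p = 0.0108). That call was lost without WT palbociclib 1 (0.0503) or WT palbociclib 2 (0.0923). SRSF8 was lower, with 46.7, 49.3 and 53.6 CPM in KO palbociclib and 57.6, 53.1 and 58.4 CPM in WT palbociclib libraries. Its groups overlapped (-0.18 ± 0.06, adjusted p = 0.0319), and the call was lost without WT palbociclib 1 (0.107), WT palbociclib 3 (0.0659), KO palbociclib 1 (0.16) or KO palbociclib 2 (0.0935).

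SRSF12, a relative of SRSF10, was also called higher, and is named after its values were seen because its mean of 1.0 CPM is below the 5 CPM set for named genes. It had 1.09, 1.36 and 2.25 CPM in KO palbociclib and 0.589, 0.566 and 0.868 CPM in WT palbociclib libraries. The groups did not overlap, and 1 KO library stood well above the rest (log2 fold change 1.22 ± 0.29, edgeR adjusted p = 0.00386).

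Of the hnRNPs, HNRNPA0 (chr5:137745651-137754376), which binds AU-rich elements, had 227, 236 and 221 CPM in KO palbociclib, 203, 201 and 193 CPM in WT palbociclib and 248, 242 and 231 CPM in WT vehicle libraries. KO lay above WT palbociclib without overlap (0.20 ± 0.048, edgeR adjusted p = 0.00379), and WT palbociclib lay below WT vehicle (-0.27 ± 0.048, adjusted p = 9.94e-05), again with shared libraries. SYNCRIP had 47.2, 47.9 and 46.8 CPM in KO palbociclib and 54.7, 53.6 and 49.9 CPM in WT palbociclib libraries, without overlap (-0.16 ± 0.055, adjusted p = 0.0375). The SYNCRIP call was lost without WT palbociclib 1 (0.157), WT palbociclib 2 (0.122), KO palbociclib 1 (0.0857), KO palbociclib 2 (0.0716) or KO palbociclib 3 (0.108). Libraries were left out only in fits without the block for the set. In the block fit of all libraries, SYNCRIP, PTBP1, SRSF5 and SRSF8 kept their calls (edgeR, adjusted p = 0.00873, 0.000179, 8.02e-05 and 0.00348).

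Some of these genes lie in stretches whose genes moved with them in the knockout. Within 5 Mb on each side, the median log2 fold change of tested genes in KO over WT was 0.318 around HNRNPA0, 0.166 around SRSF5 and -0.178 around SRSF6. After subtracting it, HNRNPA0 stood at -0.12, SRSF5 at 0.03, SRSF6 at -0.09 and SRSF8 at -0.10. Around PTBP2 and PTBP1 the median was -0.043 and 0.002, and they stood at 0.50 and -0.19 after subtraction. A difference in gene dosage between the lines was not tested.

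**Figure D5:**
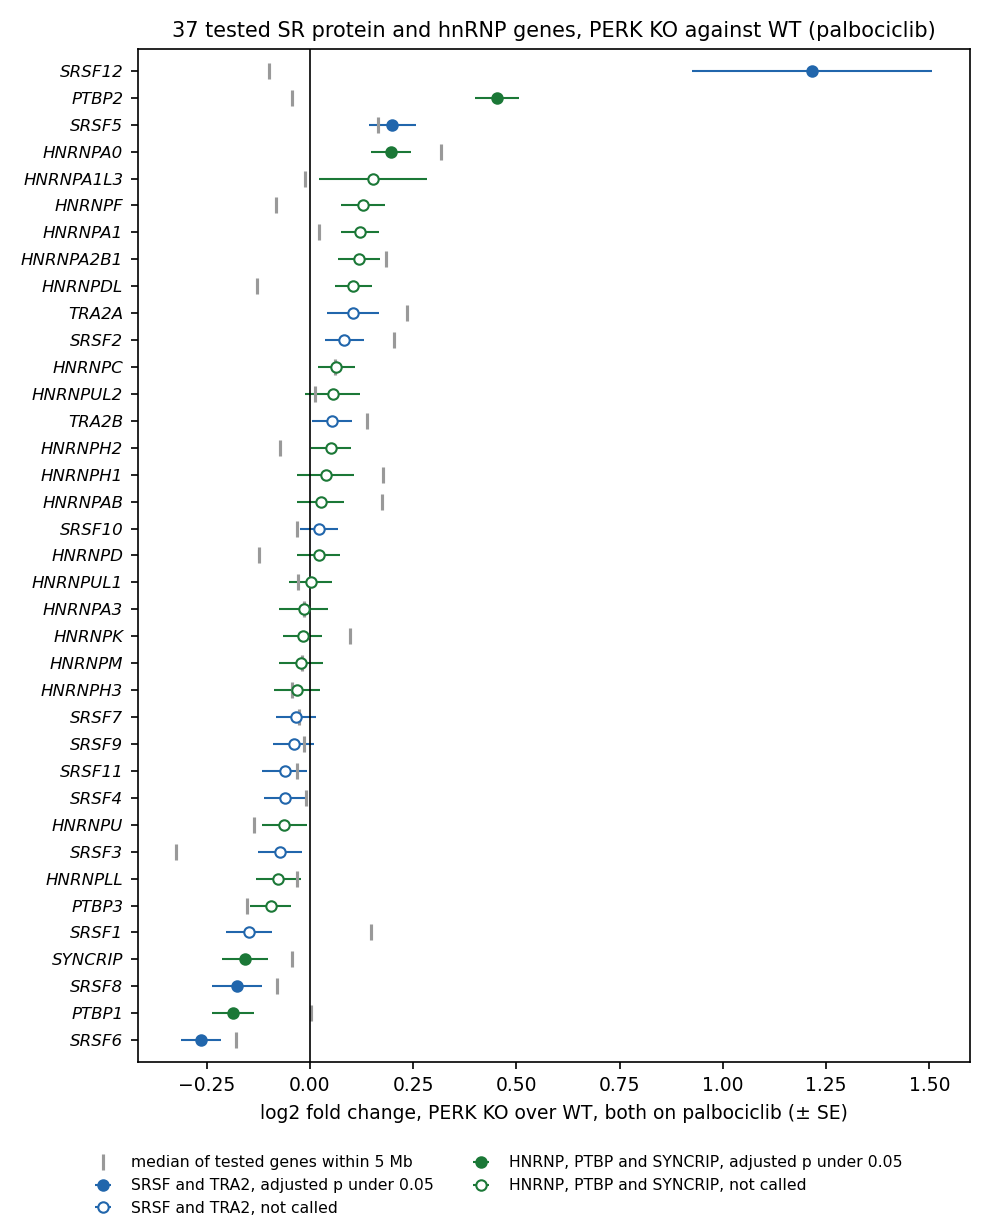
Log2 fold change of the 37 tested genes (rows) in KO over WT, both on palbociclib, with bars of 1 SE, filled points for an adjusted p under 0.05 in edgeR, and grey ticks for the median of tested genes within 5 Mb. PTBP2 stands at 0.45 with its neighbours at -0.04, whereas HNRNPA0 at 0.20 stands below its neighbours at 0.32.

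Few regulators of the SR proteins were called. SRPK1, a principal cytoplasmic SR protein kinase, had 50.6, 44.1 and 43.9 CPM in KO palbociclib and 65.5, 63.6 and 63.4 CPM in WT palbociclib libraries, without overlap (-0.47 ± 0.058, edgeR adjusted p = 3.1e-06). The phosphatase subunit PPP1CC was at -0.46 and the kinase DYRK2 at 0.21. Of the 18 tested genes of this list, 3 were lower (16.7%) and 1 was higher (5.56%). Over all tested genes, 13.0% were lower and 14.9% higher. Among all genes with a mean of at least 50 CPM, these shares were 19.8% and 20.9%. Core spliceosome genes were lower in 14 of 54 and higher in 5 (25.9% and 9.26%; median -0.03), and DESeq2 called 1 higher in place of 5, over a range of 0 to 7 across alternatives. The named ones were CRNKL1 at -0.67 and SNRPB2 at -0.60, both lowered, and LSM5 and SNRPD2 at 0.18 and 0.17. SR-related genes were higher in 6 of 37 and lower in 3 (16.2% and 8.11%; median 0.01), with LUC7L3 at 0.36, U2AF1 at 0.35, RBM39 at -0.20 and RSRC2 at -0.17. Other splicing regulators were higher in 5 of 42 and lower in 5 (11.9% each; median 0.02), the higher count being 2 by DESeq2 and 1 to 7 across alternatives, with RBFOX2 and CELF2 at 0.24 and 0.23 and QKI and KHDRBS3 both at -0.28. Nonsense-mediated decay factors were lower in 4 of 10 and higher in none (median -0.09; none at an unadjusted p under 0.05 in edgeR either, nor by DESeq2 or limma-voom), with SMG9 at -0.32 and UPF3B at -0.30.

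Nuclear retained RNAs in sum were 1928 to 2353 CPM in KO palbociclib and 1338 to 1658 CPM in WT palbociclib. The genes did not move together: of 6 tested, 1 was higher (16.7%) and 2 were lower (33.3%). Over all tested genes, 14.9% were higher and 13.0% lower. The log2 fold changes of the 6 ran from -0.78 to 1.085. NEAT1, named after its values were seen, had 1551, 1215 and 1625 CPM in KO palbociclib and 685, 534 and 850 CPM in WT palbociclib libraries. Mitochondrially encoded mRNAs summed to 33007 to 40858 CPM in KO palbociclib and 34044 to 42107 CPM in WT palbociclib, which overlap. Epithelial markers summed to 20.8 to 22.4 CPM in KO palbociclib and 31.9 to 32.7 CPM in WT palbociclib, and endothelial markers to 10.5 to 11.9 and 8.78 to 9.66 CPM. The part of these in the differences between genotypes was not tested.

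The third comparison set KO palbociclib against WT vehicle, which differ in both genotype and drug. Of the 37 genes, 27 were lower, against 26.0% of all tested genes, and 1 was higher, against 25.7%. Among the 32 with a mean of at least 50 CPM, 25 were lower (78.1%) and 0 higher. Of all genes at that level, 38.9% were lower and 30.6% higher. The median log2 fold change of the 37 was -0.33. SRSF1 had the largest fall: its 87.9, 88.3 and 84.7 CPM in KO palbociclib lay below the 146, 160 and 142 CPM of WT vehicle (-0.78 ± 0.055, edgeR adjusted p = 5.13e-10). HNRNPH1 had 20.7, 20.2 and 22.2 CPM in KO palbociclib against 34.8, 32.7 and 32.5 CPM in WT vehicle (-0.66 ± 0.066, adjusted p = 5.58e-08), and SRSF2 had 180, 170 and 168 CPM against 279, 261 and 275 CPM (-0.65 ± 0.047, adjusted p = 6.92e-10). In none of the 3 did the groups overlap.

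The 9 genes not called were PTBP2 (-0.05, adjusted p = 0.491), HNRNPA0 (-0.08), TRA2A, HNRNPF, SRSF5 (0.08), HNRNPAB, HNRNPH2, SRSF8 and HNRNPA1L3. With the set as a block, HNRNPAB was called lower (adjusted p = 0.0411) and HNRNPH2 higher (0.0133). HNRNPAB was also called lower without WT vehicle 3 (0.0445), and HNRNPH2 higher without WT palbociclib 3 (0.0284) or WT vehicle 2 (0.0444) and with only the 6 libraries compared (0.0407). The gene called higher was SRSF12, with 1.09, 1.36 and 2.25 CPM in KO palbociclib and 0.582, 1.02 and 0.716 CPM in WT vehicle libraries (1.02 ± 0.28, edgeR adjusted p = 0.00504); without KO palbociclib 3 its adjusted p was 0.0672. SRSF9 and HNRNPLL were lower here at -0.13 and -0.17. SRSF9 lost its call without WT vehicle 1 (0.104), WT vehicle 2 (0.0692), KO palbociclib 1 (0.0653) or KO palbociclib 3 (0.14), and HNRNPLL without WT vehicle 3 (0.101) or KO palbociclib 2 (0.0633). SRSF9 also lost it with all libraries kept, by DESeq2 (0.0687), without the filter (0.0886) and with only the 6 libraries compared (0.0579). In the fit with the set as a block, SRSF12, SRSF9 and HNRNPLL kept their calls (edgeR, adjusted p = 0.000455, 0.011 and 0.00388). After subtracting the median of tested genes within 5 Mb, HNRNPLL turned to 0.03, and SRSF3 stood at -0.03, HNRNPDL at -0.15 and PTBP3 at -0.21.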

How the data were processed

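Messenger RNA was captured on poly-T beads and primed with random hexamers, per the labels' protocols. The authors deposited a table of raw gene counts, not normalized, with a column for each library. Per the submitters' processing notes reads were handled with STAR 2.7.9a, Trim Galore, FastQC, CASAVA and DESeq2 on the build hg38. No source used here names the counter, its strand setting or the annotation; how reads of overlapping genes and close copies were assigned is therefore unknown. HNRNPH2, HNRNPUL2 and SRSF2 are among those that overlap another coding gene in GENCODE 29, and reads of the 136 pseudogenes summed to 15.2 to 19.4 CPM.

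Counts of all 9 libraries were fitted in 1 model of 3 groups with edgeR 4.0.16 (quasi-likelihood, robust, TMM factors 0.977 to 1.01, default filter on low counts, 6 residual degrees of freedom; R 4.3.3, limma 3.58.1). The 19408 tested genes held 99.91% of counts, and p-values were Benjamini-Hochberg adjusted over all of them. CPM is scaled by TMM. The test was checked on simulated data. Positions are from GENCODE 29 (GRCh38), matched by ID for 58261 IDs, and promoters from RefSeq (GRCh38.p14); Python 3.11.15 and matplotlib 3.10.9 were used. Genes named in full were EIF2AK3, the 5 highest and 5 lowest called genes with a mean of at least 5 CPM (3 and 3 in the third comparison), those called in opposite directions in the first and second comparisons, and, by value only, the 2 highest and 2 lowest called genes of each splicing list with a mean of at least 5 CPM. The genes and the 13 lists were chosen with earlier results of these data known. Alternatives were DESeq2 1.42.0, limma-voom, RLE factors, no filter, a block for the set, only the 6 libraries compared, each library left out, and subtraction of the median of neighbouring genes; the restriction to 50 CPM, the removal of uncertain genes and the neighbour subtraction outside KO over WT were added after seeing the data.

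The labels number the libraries as sets 1 to 3. Deviations from group means of same-numbered libraries correlated at 0.176 to 0.541 in all 9 pairs over the 12932 genes whose mean log2 CPM exceeded 1, and at 0.0296 to 0.223 over all tested genes, where not every pair passed 0.1. The numbers were taken to pair the libraries from the correlations over the 12932 genes. Replicates differed by more than sampling noise (a chi-square of 3.73 to 12.0 for each degree of freedom), and the biological coefficient of variation was 5.99%.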

Additional observations from a re-analysis of the deposited data

How the results depend on the processing

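In wild-type cells the count of SR proteins and hnRNPs lower with palbociclib was 26 to 32 over the alternatives run, against 29 in the main model, and the count higher was 0 in all of them. With the set as a block, 9 were higher and 5 lower in KO over WT on palbociclib, and 2 were higher in KO palbociclib over WT vehicle, as also with only the 6 libraries compared (2). HNRNPF and TRA2A lost their lower call with palbociclib by DESeq2, and SRSF9 that in KO palbociclib over WT vehicle. The block changed no call other than those named in the report. Leaving out each library gave 1 to 5 lower and 3 to 5 higher in KO over WT, and 0 to 2 higher in KO palbociclib over WT vehicle. HNRNPA0 in KO over WT turned to -0.12 after subtraction of the median of its neighbours, PTBP2 moved to 0.50, SRSF5 to 0.03, SRSF6 to -0.09, SRSF8 to -0.10 and SYNCRIP to -0.11; in KO palbociclib over WT vehicle HNRNPLL turned to 0.03; the cause was not tested. In KO over WT, the count of other splicing regulators higher was 1 to 7 and of core spliceosome genes higher 0 to 7, against 5 each, by DESeq2 2 and 1. SR kinases and their partners higher were 0 to 2 in both of the first comparisons, against 1. SR-related genes lower in KO over WT were 1 to 4, against 3, other splicing regulators higher with palbociclib 2 to 5, against 4, and decay factors higher in KO over WT 0 to 1, against 0. SRSF12, at a mean of 1.0 CPM, was the most variable of the 37 genes within each group.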
